A study of Mus musculus with 26 samples.

Results

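The 9 genes Kit, Tmem150b, Ttc34, Slc29a1, Emid2, Gm13112, Pcolce, Prtg and Gm12541 were selected from the 37991 genes of the count table by their measured change in sorted rods after inhibition of LSD1, so their values in that comparison are given as a description and carry no test. The rule of choice did not name the other 4 experiments of the study, on whole retinas, and these were tested. The genes were, however, chosen with earlier results of these data known. All mice carried the rd10 mutation of the rod gene Pde6b, in which rods degenerate, and the inhibitor or saline was injected intraperitoneally from PN9 with collection at PN24. Rods were sorted by FACS from homozygous animals of a line made by crossing rd10 to B6.Cg-Tg(Nrl-EGFP)1Asw/J, whose EGFP is driven by the rod promoter Nrl. Of this line, 2 libraries came from saline-injected mice and 2 from mice given GSK2879552, an inhibitor of LSD1. Whole retinas of B6.CXB1-Pde6brd10/Jrd10 mice came from 4 controls and 2 mice given DZNep (EZH2), 3 and 3 for UNC1999 (EZH2), 2 and 2 for UNC0642 (the lysine methyltransferases EHMT1 and EHMT2), and 3 and 3 for Romidepsin (HDAC). Every control group was saline-injected rd10, so no library came from a retina without degeneration. UNC1999 was dissolved with DMSO, PEG300 and Tween-80, and the labels give saline for all controls, so if its own controls did not receive that diluent, compound and diluent cannot be told apart there. DZNep was given on alternate days in the later part of its course. In the DZNep and UNC1999 experiments the labels carry running numbers at the end of most genotypes and of the name UNC1999 in 2 libraries, and these libraries were kept in the group of their title.

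LSD1, encoded by Kdm1a, removes methyl groups from lysine 4 of histone H3, a mark of active promoters and enhancers, and works with the corepressor CoREST and histone deacetylases. It is brought to its targets by repressors such as SNAI1, GFI1 and INSM1. In the retina it is known for the closing of progenitor genes as rods mature. Of the 9 genes, Kit encodes the receptor tyrosine kinase for stem cell factor (Kitl), Slc29a1 the equilibrative nucleoside transporter ENT1, Emid2 (now Col26a1) an EMI domain collagen, Pcolce an enhancer of procollagen C-proteinase, and Prtg protogenin, an immunoglobulin superfamily receptor related to Dcc and Neo1. Tmem150b encodes a membrane protein of the TMEM150 family and Ttc34 a protein with tetratricopeptide repeats, while Gm13112 and Gm12541 are annotated as a noncoding processed transcript and a lincRNA.

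The windows upstream of 4 of the genes are shown because the text compares genes that were higher with genes that were lower in treated rods and SNAI1 is one of the factors that bring LSD1 to DNA. Each is the 250 bases before the start of the RefSeq gene on GRCm38.p6, given 5′ to 3′ on the strand of the gene, with every CAGGTG or its reverse complement CACCTG (the E-box bound by SNAI1) in capitals. The windows are chr5:75574737-75574986 on the plus strand for Kit, chr7:4725252-4725501 on the minus strand for Tmem150b, chr5:137611405-137611654 on the minus strand for Pcolce and chr9:72807024-72807273 on the plus strand for Prtg. Kit has a further RefSeq start 4 bases downstream.
Kit: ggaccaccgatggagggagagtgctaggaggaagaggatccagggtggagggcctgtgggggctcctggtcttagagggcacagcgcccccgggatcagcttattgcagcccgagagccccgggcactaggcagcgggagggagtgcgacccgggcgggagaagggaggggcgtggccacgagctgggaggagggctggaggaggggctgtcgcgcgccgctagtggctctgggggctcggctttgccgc
Tmem150b: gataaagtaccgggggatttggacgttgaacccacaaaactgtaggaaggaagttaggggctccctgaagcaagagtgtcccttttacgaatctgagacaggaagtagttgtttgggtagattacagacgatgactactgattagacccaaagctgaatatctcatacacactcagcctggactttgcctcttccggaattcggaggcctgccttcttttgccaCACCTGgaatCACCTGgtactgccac
Pcolce: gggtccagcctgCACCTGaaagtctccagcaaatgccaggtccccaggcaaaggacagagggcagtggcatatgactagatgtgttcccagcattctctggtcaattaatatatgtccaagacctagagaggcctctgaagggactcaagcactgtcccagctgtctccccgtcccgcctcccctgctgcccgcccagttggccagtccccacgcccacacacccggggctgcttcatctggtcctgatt
Prtg: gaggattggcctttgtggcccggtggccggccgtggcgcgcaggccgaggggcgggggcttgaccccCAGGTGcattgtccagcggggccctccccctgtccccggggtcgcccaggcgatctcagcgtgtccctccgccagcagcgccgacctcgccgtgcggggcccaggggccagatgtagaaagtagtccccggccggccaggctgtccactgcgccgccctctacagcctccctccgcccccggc

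Windows were found for 7 of the 9 genes, and Emid2 and Gm12541 were without one. CAGGTG or CACCTG occurred in the windows of 5 of the 7, which were Tmem150b, Slc29a1, Gm13112, Pcolce and Prtg, and in 19.4% of all 27025 genes with a window. It was therefore found both among genes higher in treated rods and among genes lower in them. Tmem150b had 2 copies, at the end of the window nearest the start, and Pcolce and Prtg had 1 each. Slc29a1 had 8 windows, 4 of them with the motif, and so had more bases in which to hold it than a gene with 1 window. Snai1 itself was at 0 in both control libraries of sorted rods, and was counted in at least 1 of the treated libraries. The CRX site TAATCC was found in a window of 1 gene, Slc29a1, against 7.21% of genes, and the GC box GGGCGG in 5 of the 7 against 35.4%. Both strands were read for each motif. The windows belong to a later build than the counts, and their starts need not be those of the gene models counted, in particular for Gm13112. A match is a run of letters only.

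Counted reads per library ran from 7289460 to 19864491 for the sorted rods and from 13732959 to 36354094 for the retinas. CPM, a count divided by library size after TMM scaling (a factor that aligns libraries on the bulk of their genes), is a level, and each log2 fold change is treated against control. The sort was checked on markers. The 13 rod markers summed to 60503 to 92647 CPM in control rods and 72971 to 84294 in treated rods, against 10174 to 40692 in control retinas, and the 7 Müller glia markers to 198 to 302 and 264 to 334 CPM against 3798 to 8753. Cone markers were still present and were lower after treatment: all 10 had a negative log2 fold change (median -0.95) and their sum was 3104 to 4664 CPM in controls and 1702 to 2265 in treated rods. No cone marker was called by the quasi-likelihood test, but that test called 0 of the 14478 genes in sorted rods, so nothing is read from this. The paper reports the cone genes Pde6h and Gnb3 as downregulated in these rods. Of the other lists, all 8 bipolar cell markers (median -0.38) and all 6 tested microglia markers (median -0.47) were below 0. All 6 tested amacrine and horizontal cell markers (median 0.90), all 5 tested vascular markers (median 0.85) and 6 of 7 Müller glia markers (median 0.43) were above 0. Fibroblast markers summed to 0.703 to 4.15 CPM in controls and 2.50 to 5.25 in treated rods, with Dcn and Lum at 0. The part of these differences in the values of the 9 genes was not tested.

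Kit was measured at 0.803 and 0.995 CPM in the 2 control libraries of sorted rods and at 3.33 and 8.07 CPM after GSK2879552. Both treated libraries stood above both controls, with the second treated library more than the first. These levels rest on 6 and 17 counts in the controls and 64 and 80 in the treated rods, and the log2 fold change was 2.61. Kit is also expressed by mast cells and melanocytes. All 4 mast cell markers (Cpa3, Fcer1a, Cma1, Mcpt4) were at 0 in every library of sorted rods, as were Tyr, Mlana and Sox10 of the 7 melanocyte markers, whose sum was 2.27 to 3.10 CPM in controls and 1.82 to 2.34 in treated rods. Amacrine and horizontal cell markers summed to 156 to 162 CPM in controls and 154 to 276 in treated rods, and bipolar cell markers to 534 to 790 and 519 to 565. The part of any of these cells in the values of Kit was not tested.

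Tmem150b was low in control rods, at 0.535 and 0.995 CPM, and reached 6.40 and 9.99 CPM after treatment. Its log2 fold change of 3.32 was the largest of the 9 in this fit. Slc29a1, the nucleoside transporter, was at 7.49 and 7.61 CPM in the controls and 22.2 and 34.1 CPM in treated rods, a log2 fold change of 1.89. Emid2 was at 3.88 and 5.21 CPM and then 16.7 and 21.0 CPM, a log2 fold change of 2.03. For each of these genes the treated libraries lay above the controls with no overlap.

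Ttc34 and Gm13112 are neighbours on chromosome 4 that overlap on opposite strands. Ttc34 was at 3.61 and 2.22 CPM in control rods and at 13.7 and 17.3 CPM in treated rods, a log2 fold change of 2.44. Gm13112 was at 6.55 and 4.68 CPM in controls and at 25.9 and 54.9 CPM after treatment, a log2 fold change of 2.86. Both genes were higher in the second treated library than in the first, as were Kit, Tmem150b, Slc29a1 and Emid2.

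The other 3 genes were lower after LSD1 inhibition. Pcolce was at 71.3 and 47.9 CPM in control rods and 18.2 and 19.3 CPM in treated rods, a log2 fold change of -1.67. Prtg was at 51.5 and 39.9 CPM and then 17.0 and 11.6 CPM, a log2 fold change of -1.66. Gm12541 was at 41.2 and 27.3 CPM and then 7.70 and 9.99 CPM, a log2 fold change of -1.95. In all 3 the first control library was the highest and both treated libraries lay below both controls.

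**Figure D1:**
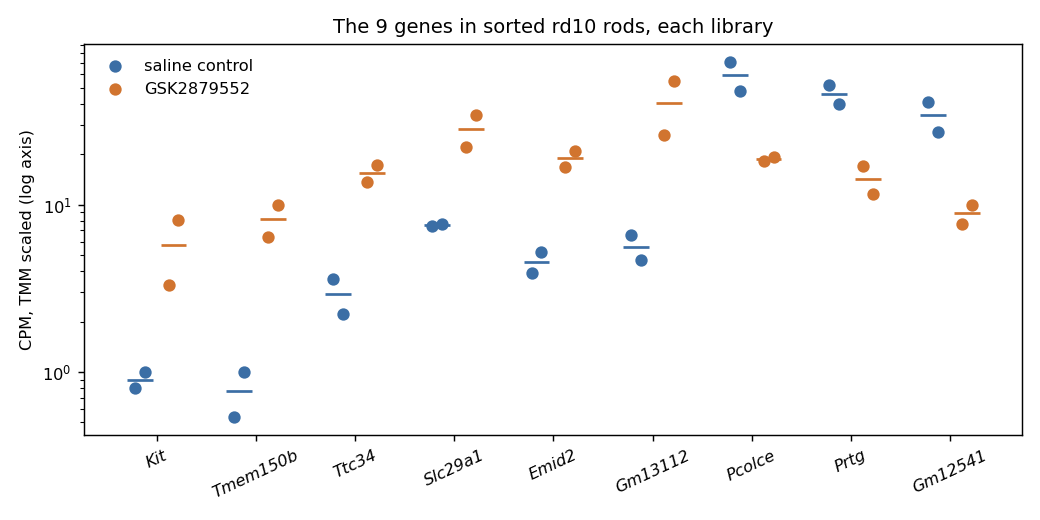
CPM (TMM scaled, log axis) of each gene in each library of sorted rods, blue for the 2 saline controls and orange for the 2 GSK2879552 libraries, with the mean of each group as a line. Kit to Gm13112 lie higher and Pcolce, Prtg and Gm12541 lower in treated rods, and no gene has overlapping groups.

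All 9 genes had groups that did not overlap in sorted rods, 6 higher and 3 lower. With 2 libraries against 2 this held for 33.2% of the 14478 genes tested, and since the choice of the genes used these values, nothing is read from the count. A gene was called where the Benjamini-Hochberg adjusted p was under 0.05 and the log2 fold change was above 1 or below -1. By the likelihood ratio test of edgeR, the test of the study's methods, 68 genes (0.470%) were called, 44 higher and 24 lower, and the 9 are among them, which follows from how they were chosen and is no test of them. The last gene inside that threshold was Gm1673 (log2 fold change -4.51, adjusted p = 0.0485) and the first outside was Gm13384 (3.06, adjusted p = 0.0526). By edgeR's quasi-likelihood test, which also carries the uncertainty of each gene's spread, 0 of the 14478 genes (0%) were called, the 9 included, 711 genes had an unadjusted p under 0.05, and the smallest adjusted p was 0.233, for Edn2. DESeq2 called 47 genes.

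Overlapping gene models limit what several of these values mean. Whether HTSeq used strand was not given, so reads from opposite strands of shared exon bases cannot be told apart. Tmem150b (chr7:4658434-4676851 on NCBIM37, minus strand) shares 1054 bases of exon, 28.2% of its own, with Brsk1 on the plus strand. Brsk1, a kinase of neurons, was at 3.20 ± 0.963 CPM (SD, n = 2) in control rods and 9.06 ± 3.32 in treated rods, with no overlap and a log2 fold change of 1.52. In control retinas Brsk1 was measured at 152 to 161 CPM as group means, while Tmem150b stayed near 1 CPM or below.

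Slc29a1 (chr17:45722149-45736555, minus strand) shares 275 bases with Gm17080 on the plus strand, whose log2 fold change in rods was 1.94 beside 1.89 for Slc29a1. Gm17080 was at 2.39 ± 0.923 CPM (SD, n = 2) in control rods and 9.47 ± 2.44 in treated rods. In the retina libraries it was at 0 to 0.137 CPM and was not tested, while Slc29a1 was at 21.0 to 36.5 CPM in control retinas. Whether strand, library kit or tissue makes that difference was not tested. Ttc34 (chr4:154230309-154241234, plus strand) and Gm13112 (chr4:154238615-154246112, minus strand) share 106 bases. Gm13112 also overlaps the model of Mmel1, without shared exon bases, and Mmel1 was at 1.96 ± 1.45 CPM (SD, n = 2) in control rods and 6.31 ± 3.49 in treated rods. Ttc34, Gm13112 and Mmel1 were thus all higher in treated rods, within 1 stretch of chromosome 4, and Mmel1 was not called (adjusted p = 0.987, quasi-likelihood test of edgeR).

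Gm12541 (chr3:37234254-37248662, minus strand) lies inside the model of the growth factor gene Fgf2 on the plus strand and shares no exon base with it. Fgf2 was at 31.1 ± 7.11 CPM (SD, n = 2) in control rods and 15.2 ± 5.32 in treated rods, and Nudt6, the nearest tested gene after it, at 40.8 ± 0.542 and 21.5 ± 7.99. Gm12540, the nearest tested gene before it and closer than Nudt6, went the other way, from 1.47 ± 1.33 CPM (SD, n = 2) to 2.92 ± 0.424, a log2 fold change of 1.09 with no overlap. Fgf2 and Nudt6 had groups that did not overlap, with log2 fold changes of -1.02 and -0.92, and neither was called (quasi-likelihood test). Pcolce (chr5:138046331-138055012, minus strand) shares 112 bases with Fbxo24 on the same strand, which was low in rods (2.38 ± 0.224 CPM, SD, n = 2, in controls) and had a log2 fold change of 0.34, opposite in sign to Pcolce. Kit (chr5:75970941-76052747) and Prtg (chr9:72655081-72765098), both on the plus strand, overlapped no other model, and Emid2 (chr5:137217629-137359079, minus strand) shared no exon base. The nearest tested genes of Kit, Chic2 and Kdr, had log2 fold changes of 0.74 and 0.45, and those of Prtg, Nedd4 and Pygo1, of -0.13 and -0.33.

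In whole retina, 1 of the 9 genes was called in 1 of 4 experiments. Prtg was at 24.2, 24.1, 22.2 and 25.1 CPM in the 4 controls of the DZNep experiment and 11.1 and 12.6 CPM after DZNep. The treated libraries lay well below every control. Prtg fell by 1.03 on the log2 scale (SE 0.0848, adjusted p = 0.000397, edgeR's quasi-likelihood test), a fold of 2.04. The fold is close to the threshold: without the first DZNep library the log2 fold change was -0.93 (adjusted p = 0.0112) and the gene was not called. The background of calls after DZNep was 1.71% of 16477 genes, 168 higher and 113 lower. In bulk tissue fewer cells of a type and less RNA per cell cannot be told apart. After DZNep all 13 rod markers had an adjusted p under 0.05 with a positive fold (summed level 20466 to 33887 CPM in controls and 61992 to 64012 after DZNep) and Müller glia markers summed to 7710 to 7957 and 5293 to 5899 CPM. The part of either in the values of Prtg was not tested.

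Slc29a1 and Gm12541 were also lower after DZNep by smaller folds. Slc29a1 was at 27.8 to 32.9 CPM in the 4 controls and 24.4 and 24.9 CPM after DZNep (log2 fold change -0.31, SE 0.0780, adjusted p = 0.0233, edgeR). Gm12541 was at 10.7 to 15.6 CPM in controls and 9.69 and 7.96 CPM after DZNep (-0.56, SE 0.155, adjusted p = 0.0328, edgeR). Neither met the fold threshold. An adjusted p under 0.05 was found after DZNep for 3 of the 9 genes, against 3734 of 16477 genes. Slc29a1 was higher in treated rods and lower in DZNep retinas. Gm13112 was at 0.319, 1.06, 0.507 and 0.459 CPM in controls and 1.60 and 1.19 CPM after DZNep, a log2 fold change of 1.29 (SE 0.414, adjusted p = 0.0533, edgeR). Without the second control library, the highest of the 4, it was 1.73 (adjusted p = 0.0161). In DZNep retinas 5 of the 9 genes had groups that did not overlap, against 45.9% of all genes.

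After UNC1999, the other EZH2 inhibitor, 0 of the 8 genes that passed the filter on low counts were called, against 0.368% of 15775 genes. An unadjusted p under 0.05 was found for 4 of the 8, against 3728 of the 15775 genes, and 3 had groups that did not overlap (background 27.4%). Prtg was at 20.0 CPM in the lowest and 21.1 ± 1.03 CPM (SD, n = 3) in all controls and 6.71, 16.6 and 11.8 CPM after UNC1999 (log2 fold change -0.83, SE 0.266, adjusted p = 0.114, edgeR). Gm12541 was at 16.4, 15.9 and 18.3 CPM and then 3.35, 12.4 and 6.88 CPM (-1.14, SE 0.366, adjusted p = 0.116, edgeR). Pcolce was at 112, 97.3 and 73.6 CPM and then 21.1, 70.3 and 47.2 CPM (-1.02, SE 0.364, adjusted p = 0.145, edgeR). These 3 genes, the ones lower in treated rods, had every UNC1999 library below every control, and in each of them the first UNC1999 library was the lowest and the second was the nearest to the controls. Emid2 was at 2.36, 2.18 and 4.14 CPM in controls and 9.19, 3.64 and 6.96 CPM after UNC1999, with overlap (1.18, SE 0.373, adjusted p = 0.112, edgeR), and here the first UNC1999 library was the highest.

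By the likelihood ratio test and by DESeq2, Emid2 and Gm12541 were called in UNC1999 retinas and the other 6 tested genes were not. These tests called 469 and 354 of the 15775 genes. The gene that did not pass the filter was Tmem150b, at 0.145 to 0.333 CPM in controls and 0.186 to 0.743 CPM after UNC1999. Rod markers summed to 21601 to 40692 CPM in the controls of this experiment and 54953 to 75190 after UNC1999, and RPE markers to 449 to 654 and 834 to 1012 CPM. Lower after UNC1999 were microglia markers (150 to 243 and 90.1 to 117 CPM) and vascular markers (549 to 610 and 352 to 456 CPM). The log2 fold change was negative for all 8 microglia markers (median -1.10) and for 6 of 7 vascular markers (median -0.20). All 8 microglia markers also had negative values after DZNep, UNC0642 and Romidepsin (medians -0.80, -0.70 and -0.77). The part of any of these cells in these values was not tested. Kit, which melanocytes also express, had log2 fold changes of -0.14 after DZNep and 0.19 after UNC1999. In each of these experiments 2 of the 7 melanocyte markers were called higher, beside 1.71% and 0.368% of all genes called. These were Tyr and Sox10 after DZNep and Dct and Tyr after UNC1999. The part of melanocytes in the values of Kit was not tested.

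After UNC0642, 0 of the 9 genes and 0 of 16321 genes (0%) were called by the quasi-likelihood test. The smallest adjusted p over all genes was 0.128, 2407 genes had an unadjusted p under 0.05, and the likelihood ratio test called 34 genes and DESeq2 called 4, with 0 of the 9 among either. DESeq2 gave an adjusted p for 1 of the 9 there, Pcolce, so it could not have called the other 8. Gm12541 was at 18.8 and 16.3 CPM in controls and 11.7 and 11.4 CPM after UNC0642 (log2 fold change -0.60, SE 0.132, adjusted p = 0.299, edgeR). It was the only one of the 9 with an unadjusted p under 0.05 there. In 4 of the 9 genes the groups did not overlap, against 52.1% of all genes. The intervals of the others were narrow for Kit (-0.51 to 0.10), Slc29a1 (-0.30 to 0.16) and Pcolce (-0.31 to 0.08) and wide for Gm13112 (-1.28 to 1.69).

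After Romidepsin, 0 of the 9 genes were called, against 0.561% of 16049 genes. Pcolce came nearest: it was at 41.4, 55.1 and 55.4 CPM in controls and 72.5, 158 and 118 CPM after Romidepsin, with no overlap (log2 fold change 1.20, SE 0.260, adjusted p = 0.0656, edgeR). It was called by the likelihood ratio test (adjusted p = 0.000902), by DESeq2 and without the first Romidepsin library (1.45, adjusted p = 0.0184), and its adjusted p over all settings ran from 0.000501 to 0.196. Fbxo24, which shares exon bases with Pcolce on the same strand, was at 1.36 ± 0.281 CPM (SD, n = 3) in controls and 4.85 ± 2.28 after Romidepsin (adjusted p = 0.0656, edgeR). Fibroblast markers summed to 93.9 to 111 CPM in these controls and 77.4 to 96.0 after Romidepsin. Their part in the value of Pcolce was not tested. Kit was at 14.0, 13.4 and 13.7 CPM and then 11.3, 7.39 and 10.7 CPM (-0.48, SE 0.187, adjusted p = 0.208, edgeR). Its treated retinas thus lay below the controls, while treated rods had lain above theirs. Melanocyte markers summed to 58.8 to 82.0 CPM in these controls and 22.2 to 36.5 after Romidepsin (6 of 7 below 0). Amacrine and horizontal cell markers summed to 1599 to 1896 and 1276 to 1451 CPM, and bipolar cell markers to 2159 to 2318 and 1423 to 1679. The part of these cells in the values of Kit was not tested. Gm13112 was at 0.411 to 0.534 CPM in controls and 0.735, 0.552 and 1.73 CPM after Romidepsin (1.15, SE 0.494, adjusted p = 0.248, edgeR). In 3 of the 9 genes the groups did not overlap (background 26.0%).

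**Figure D2:**
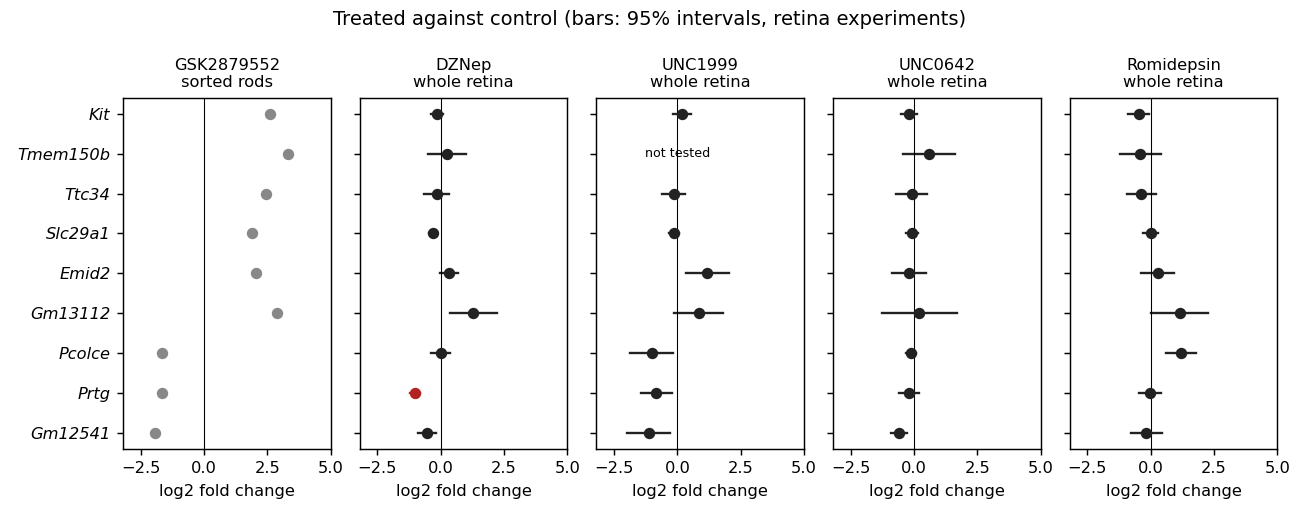
Log2 fold change of each gene (rows) in each experiment (panels), with 95% intervals of edgeR's quasi-likelihood fit for the 4 retina experiments and points alone for the sorted rods, which chose the genes. The called gene, Prtg after DZNep, is in red, and Tmem150b was not tested after UNC1999.

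Pcolce was the only one of the 9 called in the test of a difference among the 4 retina experiments. The interaction test over the 22 retina libraries had an adjusted p of 0.0479 for Pcolce (edgeR's quasi-likelihood test, 338 of 17274 genes or 1.96% called). Of the 6 pairs of experiments, 1 differed: the change after UNC1999 was lower than that after Romidepsin by a log2 difference of -2.22 (SE 0.441, adjusted p = 0.00896 over all genes, edgeR). In retina this gene therefore had changes of opposite sign in these experiments, -1.02 and 1.20. The interaction was lost in 17 of the 22 fits that left out 1 library, with adjusted p from 0.0644 to 0.127 (edgeR). It held, with adjusted p from 0.0112 to 0.0483 (edgeR), in the other 5. These left out the first Romidepsin library, the first DZNep control, the third UNC1999 control, or the first or second UNC1999 library. The fall of Prtg after DZNep was not shown to differ from its change in the other experiments (interaction adjusted p = 0.152, edgeR).

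**Figure D3:**
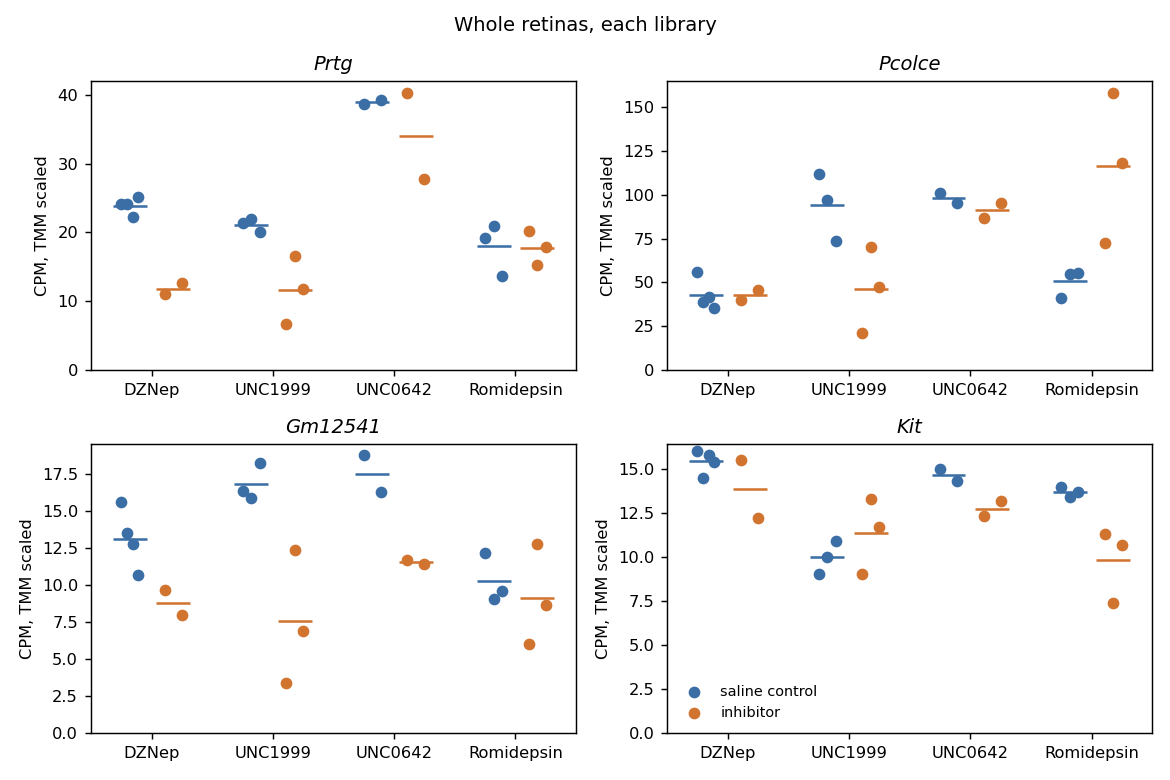
CPM (TMM scaled, linear axis from 0) of Prtg, Pcolce, Gm12541 and Kit in each whole retina library, blue for saline controls and orange for the inhibitor, with group means as lines. Prtg separates after DZNep, and Pcolce is lower after UNC1999 and higher after Romidepsin.

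In retina the medians of the 6 genes higher in treated rods were 0.05, 0.19, -0.09 and -0.19 in the order DZNep, UNC1999, UNC0642 and Romidepsin, and those of the 3 lower genes were -0.56, -1.02, -0.19 and -0.02, beside a median over all genes between -0.01 and 0.00. Gm12541 and Prtg had negative values in all 4 experiments and Gm13112 positive values in all 4. With 1 library left out, the values of Gm13112 and Prtg after UNC0642 (-0.81 to 0.88 and -0.49 to 0.05) and of Gm12541 and Prtg after Romidepsin (-0.48 to 0.06 and -0.18 to 0.12) crossed 0. Tmem150b stayed at 0.145 to 1.28 CPM in the retina libraries and Ttc34 at 1.87 to 3.69 CPM, and the smallest adjusted p among the experiments was 0.52 for Tmem150b and 0.458 for Ttc34. Prtg in the UNC0642 experiment was at 38.9 CPM as the mean of both controls and 40.3 and 27.8 CPM in treated retinas (-0.19, SE 0.166, adjusted p = 0.59, edgeR).

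Levels were compared between genes per kb of exon. In control rods Gm12541 (23.8 CPM per kb) and Pcolce (15.6) were the highest, followed by Prtg (5.23) and Gm13112 (4.33), Slc29a1 (1.88), Ttc34 (0.855) and Emid2 (0.778), and Tmem150b (0.205) and Kit (0.154). The 2 libraries of Prtg overlapped with those of Gm13112, those of Ttc34 with Emid2 and those of Tmem150b with Kit, so the order within these pairs is not set. Those of Gm12541 (28.6 and 18.9 CPM per kb) lay above those of Pcolce (18.6 and 12.5) by a narrow margin. In treated rods Gm13112 led at 31.2 CPM per kb, with Slc29a1 at 7.03, Gm12541 at 6.14, Pcolce at 4.90, Ttc34 at 4.54, Emid2 at 3.22, then Tmem150b, Prtg at 1.64 and Kit at 0.978. Here Kit (0.571 and 1.38 in the 2 libraries) overlapped with Prtg (1.94 and 1.33) and Prtg with Tmem150b, as did Slc29a1 with Gm12541 and Pcolce with Ttc34. The step from Gm13112 to Slc29a1 is the widest of that order.

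Rods and retinas were made with different library kits according to the study's methods, so tissue and kit cannot be told apart between them and no test was made. Kit was at 9.03 to 16.0 CPM in the 12 control retinas (median 14.2), above the 0.899 ± 0.136 CPM (SD, n = 2) of control rods and the 5.70 ± 3.36 of treated rods. Gm13112 went the other way, at 0.319 to 1.06 CPM (median 0.483) in control retinas and 5.62 ± 1.32 CPM (SD, n = 2) in control rods. Slc29a1 was at 21.0 to 36.5 CPM (median 31.1) in control retinas, above control rods, and treated rods at 28.2 ± 8.42 CPM (SD, n = 2) lay within that range. Pcolce ranged from 35.7 to 112 CPM among the control retinas, and control rods at 59.6 ± 16.5 CPM (SD, n = 2) lay within it.

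**Figure D4:**
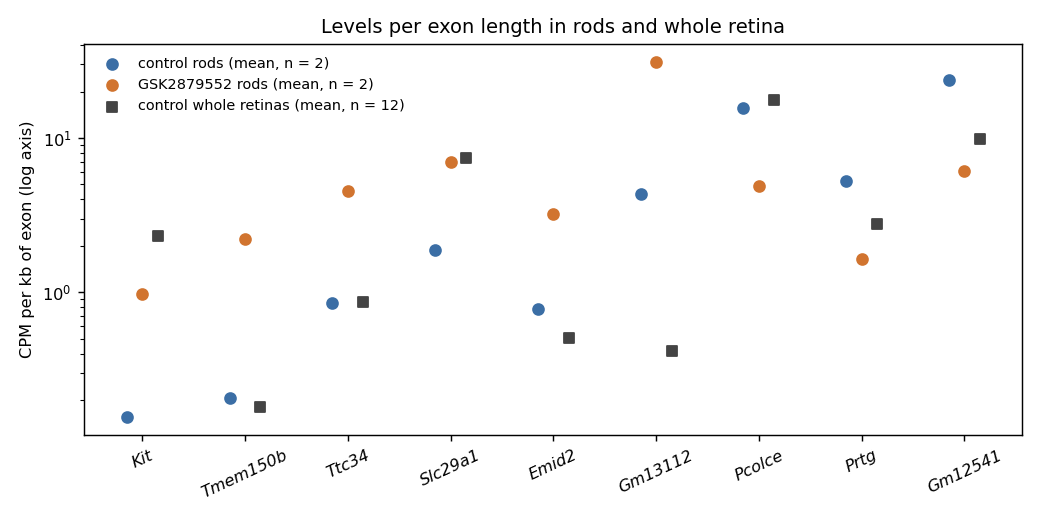
Mean level per kb of exon (log axis) in control rods (blue), GSK2879552 rods (orange) and control whole retinas (dark squares). Kit has a lower mean in both groups of rods than in retina, and Gm13112 is higher in rods than in retina.

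The partners of these genes were looked at from lists. Kitl, the ligand of Kit, was at 0.957 ± 0.219 CPM (SD, n = 2) in control rods and 0.619 ± 0.448 in treated rods, and none of the 32 genes of KIT signalling was called in any of the 5 comparisons. The shares of all genes called were 0% in sorted rods, 1.71% after DZNep, 0.368% after UNC1999, 0% after UNC0642 and 0.561% after Romidepsin. Here and in the lists that follow, nothing is therefore read from a count of 0 calls. In sorted rods 27 of them were tested, 13 above and 14 below 0, with 9 whose groups did not overlap (background 33.2%). Kdm1a, which encodes LSD1, was at 24.8 ± 4.89 CPM (SD, n = 2) in control rods and 29.0 ± 2.90 in treated rods, with overlap, and none of the 21 genes of LSD1 complexes was called in any comparison. In the retina experiments Kitl had log2 fold changes from -0.22 to 0.17 and Kdm1a from -0.02 to 0.21. Gfi1 and Gfi1b were at 0 in all 4 rod libraries. GSK2879552 acts on the enzyme, and the level of Kdm1a RNA does not measure that.

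Of the nucleoside transport genes beside Slc29a1, 8 were tested in rods (5 above and 3 below 0, 3 without overlap, background 33.2%) and 0 called. Nt5e, an ecto-nucleotidase, rose after DZNep from 70.6 ± 15.7 CPM (SD, n = 4) to 157 ± 9.39 (n = 2), adjusted p = 0.00193 by edgeR. Of the 10 genes of this list tested after DZNep, 4 were above and 6 below 0 (median -0.18). By edgeR, 2 of them were higher and 3 lower at adjusted p under 0.05, against 3734 of 16477 genes. Of the procollagen and collagen genes beside Pcolce, 14 were tested in rods and 0 called, while Col1a1 and Col5a3 rose after Romidepsin by log2 fold changes of 1.80 and 1.92 (adjusted p = 0.0269 for both, edgeR), in the experiment in which Pcolce came nearest to a call. Of the 19 genes of that list tested there, 8 were above and 11 below 0 (median -0.09), and 0.561% of all genes were called. Col1a1 is also among the fibroblast markers. Of the 7 genes listed beside Prtg, Dcc and Neo1 among them, 0 were called in any comparison, beside the shares of all genes given above. Neo1 (log2 fold change -0.41, adjusted p = 0.000812, edgeR) and Dcc (-0.40, adjusted p = 0.0318, edgeR) were lower after DZNep, below the fold threshold. An adjusted p under 0.05 was found there for 3734 of 16477 genes, so nothing is read from these 2 of the 7. Of the related TMEM150 and DRAM genes, 3 were tested in rods and all were below 0 (median -0.31), with groups that did not overlap (background 33.2%), and the EMI domain genes, 2 tested, were 1 above and 1 below 0. No gene of these last families was called in rods by the quasi-likelihood test, which called 0 of the 14478 genes there.

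For each gene tested in all 4 retina experiments, the 2 genes with the nearest set of 4 log2 fold changes were taken from 15375 genes. They were Mfi2 and Mmp14 for Prtg, 1500035N22Rik and Gm16244 for Pcolce, Cd86 and H2-M3 for Gm12541, 4930547M16Rik and Lgi2 for Kit, Hk2 and Slco4a1 for Gm13112, Wfikkn2 and Gm16493 for Emid2, Thsd1 and Slc41a2 for Slc29a1, and Hmcn1 and Fam117a for Ttc34. The root mean square differences ran from 0.02 to 0.15 on the log2 scale. Mmp14 had log2 fold changes of -0.90, -0.82, -0.01 and -0.21 in the order DZNep, UNC1999, UNC0642 and Romidepsin, beside -1.03, -0.83, -0.19 and -0.02 for Prtg. The choice over so many genes makes near values likely, and nothing is read from the names.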

How the data were processed

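Poly(A) RNA was sequenced from 22 whole retinas and 4 libraries of sorted rods of rd10 mice. After trimming by BBDuk the authors mapped reads with HISAT2 2.2.1 to the mouse build NCBIM37 (mm9) and counted them over Ensembl 67 genes with HTSeq 0.11.2, with no strand option given in the sources used here. The deposited counts are unnormalised and cover 37991 genes, and symbols of 37205 came from the annotation of that build. The labels give 1 library kit for all samples, and the study's methods a SMART-Seq kit for the rods. Samples were grouped by their titles, which call them biological replicates. No 2 replicates were copies (23 pairs, chi-square per gene at least 3.72).

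Each treatment was compared with the controls of its own experiment with edgeR 4.0.16 (R 4.3.3; filterByExpr, TMM, quasi-likelihood test, Benjamini-Hochberg over all genes tested), called at adjusted p under 0.05 and absolute log2 fold change above 1. The methods of the study used the likelihood ratio test, kept here as an alternative beside DESeq2 1.42.0, RLE factors, other filters, a replicate block, no fold threshold, 1 fit of all 22 retina libraries and leaving out each library. Scripts were tested on simulated data. The precision is set by 2 to 4 libraries a group and by low counts of Kit and Tmem150b in rods.

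Genes named are the 9, Kitl and Kdm1a, called genes of the lists, overlapping and nearest tested genes, genes at the threshold in rods and the 2 nearest patterns; Neo1, Dcc and Edn2 were named after their values were seen. The members and lists were chosen with earlier results of these data known. The crossed block and the likelihood ratio test without each library were added after seeing the data. Promoter windows were taken from RefSeq (GRCm38.p6).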

Additional observations from a re-analysis of the deposited data

Results flagged for a closer look

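Ttc34 in the 4 saline controls of the DZNep experiment was at 3.69, 2.62, 2.68 and 2.48 CPM, and the gap of the first control to the nearest of the others took 0.841 of the whole range, above the Dixon value for 4 samples. About 1 in 20 such groups passes by chance, and the group was looked at for each of the 9 genes. The change of Pcolce among the 4 retina experiments (adjusted p = 0.0479, edgeR's quasi-likelihood interaction test) differed between groups, with log2 fold changes of -0.01 after DZNep, -1.02 after UNC1999, -0.11 after UNC0642 and 1.20 after Romidepsin.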

How the results depend on the processing

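The counts of the 9 genes in sorted rods describe the comparison that chose them and test nothing. There the quasi-likelihood test called 0 of the 9 genes, the likelihood ratio test 9, DESeq2 8, no filter on low counts 9 and the replicate block 1 (Gm13112). Leaving out 1 library gave 0 to 9 (9 without the first treated library, 7 without the second), and 3 to 9 with the likelihood ratio test. The counts over all genes were 0 in the main fit and 68, 47, 168 and 3 under those settings, and 0 under the crossed block. After DZNep 1 gene was called, 2 by the likelihood ratio test or without a filter, 3 with no fold threshold, and 0 (without the first DZNep library) to 2 (without the second control) with 1 library left out. After UNC1999 0 were called, 2 by the likelihood ratio test, DESeq2 or the fit of all 22 retina libraries, and 0 to 1 with 1 library left out (Emid2 without the third control, 1.53, adjusted p = 0.0295, edgeR). After UNC0642 0 were called (0 to 0 with 1 library left out), but DESeq2 gave an adjusted p for Pcolce alone and Gm13112 was not tested with 10 counts in every library. After Romidepsin 0 were called, and 1 (Pcolce) by the likelihood ratio test, DESeq2, no filter, the replicate block or the fit of all 22, with 0 to 1 when 1 library was left out. For the interaction 1 gene was called, 0 with the replicate block (Pcolce, adjusted p = 0.18), and 0 to 1 with 1 library left out. The cause of these differences was not tested.

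Where an arm was left with 1 library, it was assumed to vary like the others. Counts over all genes moved more than 1.5 times in UNC1999 (58 in the main fit, 469 by the likelihood ratio test, 354 by DESeq2, 342 without a filter, 21 with the replicate block, 437 in the fit of all 22, 95 with no fold threshold), in Romidepsin (90, then 498, 387, 367, 91 and 520), in UNC0642 (0, then 34, 4, 173, 124 and 3) and for the interaction (338, then 1233 by the likelihood ratio test, 534 without a filter and 20 with the replicate block). In DZNep no fold threshold gave 3734 in place of 281. With 1 library left out they were 0 to 210 in rods, 196 to 335 after DZNep, 4 to 806 after UNC1999, 0 to 99 after UNC0642 and 0 to 338 after Romidepsin.

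Single values near 0 changed sign. In Romidepsin Slc29a1 was 0.00 without a filter, 0.01 with 10 counts in every library and 0.00 in the fit of all 22, and -0.08 to 0.05 with 1 library left out. With 1 library left out the ranges also crossed 0 for Kit (-0.34 to 0.00), Tmem150b (-0.09 to 0.43) and Pcolce (-0.11 to 0.14) after DZNep, for Ttc34 (-0.32 to 0.08), Slc29a1 (-0.17 to 0.02), Emid2 (-0.47 to 0.03), Prtg (-0.49 to 0.05) and Gm13112 (-0.81 to 0.88) after UNC0642, and for Prtg (-0.18 to 0.12) and Gm12541 (-0.48 to 0.06) after Romidepsin. Same-numbered rods deviated with r = -0.113, and no retina experiment with 3 or more pairs had every r above 0.1. In UNC0642, with 2 libraries a group, same-numbered libraries deviated with r = 0.229 and the others with r = -0.229. The replicate block called 124 genes there, so whether the numbers pair those libraries is not settled. The block left the counts of DZNep (1), UNC1999 (0) and UNC0642 (0) members as they were. The median log2 ratio of control rods to control retinas over the 9 genes was 0.18, and 0.16 with CPM by library total.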
